A study of Mus musculus with 6 samples.

Results

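The genes described here encode matrix proteases and their inhibitors: the matrix metalloproteinases (MMPs) and their tissue inhibitors, the ADAM and ADAMTS proteases, the plasminogen activators with their receptor and serpins, lysosomal cathepsins with a cystatin, and heparanase. The 51 genes were listed by family. A gene was measured where the platform's annotation gave a probe set exactly 1 gene symbol, and of several probe sets the brightest by mean signal was read. By this rule 48 of the 51 genes were measured, of 19937 genes in all, and Mmp15, Adamts2 and Serpine2 were not analysed here. RNA of 3 MTT and 3 MPC samples, untreated as far as the sources say, was read on 1-colour Affymetrix Mouse Gene 1.0 ST arrays. MPC is a mouse pheochromocytoma line that the methods trace to NF1 knock-out mice and describe as well differentiated. MTT was derived from liver metastases of MPC cells and is described as fast-growing, so the groups are 2 related cell lines, each represented by a single line. Cultures of both were kept in DMEM with fetal bovine and horse serum.

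The title and the cell type of each sample gave its line, whereas tissue source and disease status read the same on all 6. The methods do not describe how the MPC arrays were made, while for MTT cells they speak of separate samples in triplicate. Whether same-line samples came from independent cultures is not stated. The p-values reflect the spread among these samples, which may be technical. Values are log2 signals after RMA (background subtraction, quantile normalization and a summary of the probes of a probe set). The median log2 signal was 7.73 to 7.76 on MTT arrays and 7.73 to 7.77 on MPC arrays. Of 9 measured markers of chromaffin cells 8 were brighter than the median gene, whose mean signal was 8.28, and Th, for the first enzyme of catecholamine synthesis, read 13.48. The exception was Pnmt, which makes adrenaline and read 7.02. Between the lines, limma called 2 of the 9. Slc18a1 was higher in MTT cells (log2 difference 0.27, adjusted p = 0.00424) and Chgb lower (-0.15, adjusted p = 0.0233). Of 26 markers of fibroblasts, macrophages, endothelium and hepatocytes other than Postn, 24 were at or below that median, and limma called none (2 had an unadjusted p under 0.05). They read 4.34 to 8.74. A signal in this range is therefore not shown to lie above background. Of the 48 proteases and inhibitors 26 were at or below the median, and Reck, at 8.62, was in this range too. Postn, a fibroblast-list gene for the matrix protein periostin, was the exception, at 11.01 ± 0.07 (SD, n = 3) on the MTT arrays and 9.93 ± 0.04 (SD, n = 3) on the MPC arrays. The mean log2 signal of the 8 fibroblast markers, Postn included, was 7.62 to 7.63 on MTT arrays and 7.46 to 7.55 on MPC arrays. Postn differed by 1.09 on the log2 scale (MTT minus MPC). The other 7 fibroblast markers ran from -0.09 (Lum) to 0.07 (Pdgfrb), and none of them was called. The part of such cells in the results below was not tested. In bulk RNA, fewer cells of a kind and less RNA per cell cannot be told apart.

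Cells remodel the extracellular matrix with proteases that are made as inactive precursors, activated at or near the cell surface and held in check by dedicated inhibitors. MMPs cut collagens and other matrix proteins, and the TIMPs block them. ADAMs release the outer parts of membrane proteins, ADAMTS enzymes trim proteoglycans and procollagens, and plasmin, formed by the plasminogen activators, digests fibrin and activates other proteases. Cathepsins work mainly in lysosomes, and some are secreted. In tumours these systems are studied for their part in invasion.

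MTT and MPC cells were compared to ask which of these genes differ between a line and its metastatic derivative. Of the 48 measured genes, 3 were higher and 4 lower in MTT cells, and 41 did not pass limma's test, with the threshold at 0.05 after adjustment over all genes. The gelatinase gene Mmp2, the inhibitor gene Timp2 and Adam22 rose. Timp3, Adam10, Adamts1 and Ctsz fell. These 7 of 48 stand against 7.87% of all genes tested, of which 3.93% were called higher and 3.94% lower. Calls were more frequent among brighter genes. Above the median signal 6 of 22 members were called, against 12.2% of all such genes, and at or below it 1 of 26 was called, against 3.49%. No member differed 2-fold, and the median log2 difference (MTT minus MPC) was 0.00 over the members and -0.01 over all genes tested. The median absolute difference was 0.07 over the members and 0.05 over all genes. The arrays of the lines did not overlap for 15 of the 48 members, 8 higher and 7 lower in MTT cells, against 27.2% of all genes. That share is close to the background and is no result about these genes.

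**Figure D1:**
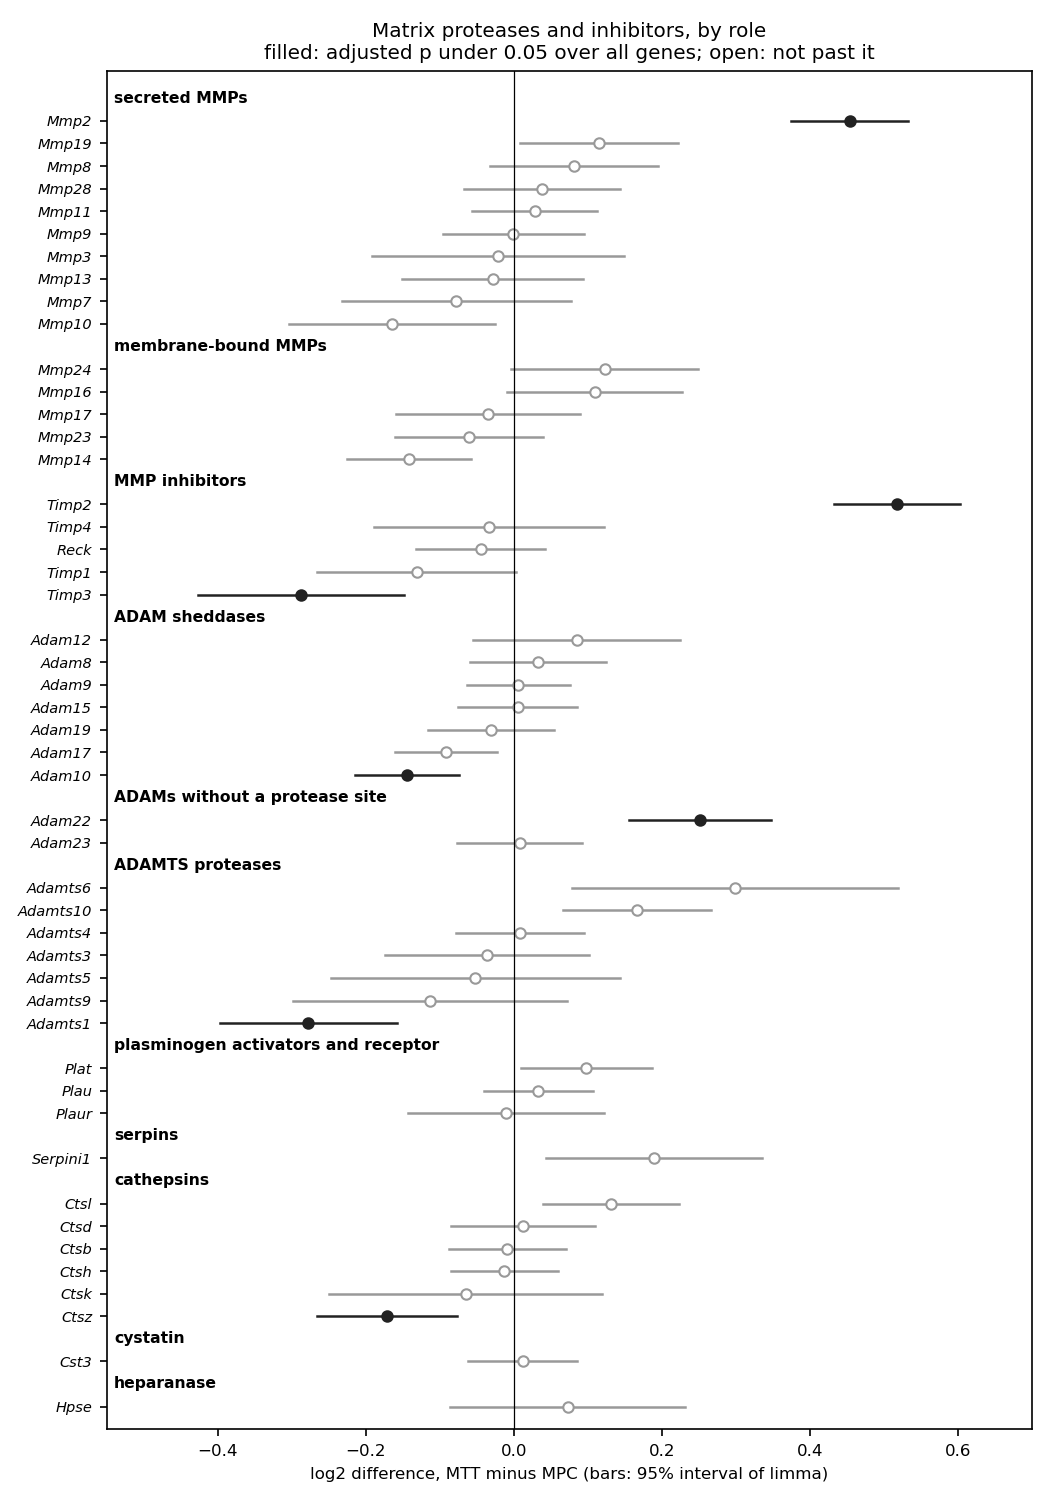
log2 difference between MTT and MPC cells (horizontal axis, MTT minus MPC) of the 48 measured genes, in rows grouped by role. Points are limma estimates, bars are 95% intervals, and filled points mark the 7 genes with an adjusted p under 0.05, from Timp2 at 0.52 to Timp3 at -0.29.

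Among the secreted MMPs, Mmp2 alone was called, and it was one of the 2 of 10 measured genes that were brighter than the median gene. Mmp2 encodes gelatinase A, which degrades type IV collagen of basement membranes and denatured collagen. Its log2 signal was 11.79, 11.78 and 11.83 in the MTT samples and 11.38, 11.35 and 11.32 in the MPC samples. The lines did not overlap, and the gap between them was wider than the spread within either. The means were 11.80 ± 0.03 (SD, n = 3) and 11.35 ± 0.03 (SD, n = 3), a log2 difference of 0.45 (standard error 0.03, 95% interval 0.37 to 0.53), or 1.37-fold (limma adjusted p = 0.000168). The call held in each of the 15 alternative settings, with differences of 0.44 to 0.48. The other gelatinase, Mmp9, read 6.85 ± 0.06 (SD, n = 3) on the MTT arrays and 6.86 ± 0.04 (SD, n = 3) on the MPC arrays, a log2 difference of -0.00078 (95% interval -0.10 to 0.09).

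The stromelysins, which cut proteoglycans and other MMPs, the collagenases and matrilysin did not pass the test. The stromelysin Mmp10 read 6.80, 6.93 and 6.83 in MTT and 6.90, 7.06 and 7.10 in MPC samples, with overlapping lines and a log2 difference of -0.16 (95% interval -0.30 to -0.03, adjusted p = 0.166). Mmp3, another stromelysin, had a log2 difference of -0.02 (95% interval -0.19 to 0.15), the collagenase Mmp13 one of -0.03 (95% interval -0.15 to 0.09) and the matrilysin Mmp7 one of -0.08 (95% interval -0.23 to 0.08). These genes and Mmp8, the neutrophil collagenase, at 5.12 ± 0.09 (SD, n = 3) in MTT cells, were all dimmer than the median gene. Mmp11, which was brighter, read 8.80 ± 0.04 (SD, n = 3) and 8.77 ± 0.03 (SD, n = 3). Over the 9 uncalled secreted MMPs the differences ran from -0.16 to 0.11, and 2 of them, Mmp10 and Mmp19, had an unadjusted p under 0.05.

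Among the 5 measured MMP genes of the family list on chromosome 9, Mmp8 had none of the promoter motifs searched. Mmp3, Mmp7, Mmp10 and Mmp13 were picked for display by their promoter motifs, so that they share these is no result. The 90 bases before the first listed start of each are shown because each window holds both an AP-1 motif (TGANTCA) and a TATA motif (TATAAA), which are in capitals. The sequences are RefSeq's for GRCm38.p6, all on the plus strand, at chr9:7445732-7445821 for Mmp3, chr9:7692000-7692089 for Mmp7, chr9:7502252-7502341 for Mmp10 and chr9:7272424-7272513 for Mmp13.
Mmp3: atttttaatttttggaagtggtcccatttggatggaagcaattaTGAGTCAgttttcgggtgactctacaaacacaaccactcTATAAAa
Mmp7: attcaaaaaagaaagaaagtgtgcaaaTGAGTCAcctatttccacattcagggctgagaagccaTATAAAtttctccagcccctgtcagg
Mmp10: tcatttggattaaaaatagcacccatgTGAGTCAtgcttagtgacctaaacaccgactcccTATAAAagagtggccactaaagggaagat
Mmp13: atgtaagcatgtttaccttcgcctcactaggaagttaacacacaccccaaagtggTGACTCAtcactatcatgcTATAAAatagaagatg
The AP-1 motif begins 46, 63, 63 and 35 bases before the start of Mmp3, Mmp7, Mmp10 and Mmp13. The RefSeq promoter table held 33 of the 48 members. In the 250 bases before the start 5 of these 33 had an AP-1 motif, against 6.87% of all 27025 genes in that table, measured here or not. The fifth was Plaur. The others are the neighbouring MMP genes shown above, so they are not independent cases. A TATA motif was found in 5 of the 33, the same MMP genes among them, against 13.0% of all. Both motifs were searched on both strands. Of the 6 called members in the table, none had an AP-1 motif in this window. Mmp2, the other called member, had no promoter entry and was not searched. The promoters of Mmp1a, Mmp1b, Mmp12, Mmp20 and Mmp27, on chromosome 9 but outside the family list, were not looked at singly. A match describes letters only and not a bound site.

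None of the 5 measured membrane-bound MMPs was called, and 1 had an unadjusted p under 0.05. It was Mmp14, whose product MT1-MMP activates the precursor of Mmp2 at the cell surface. Mmp14 read 10.11, 10.17 and 10.12 in MTT and 10.28, 10.24 and 10.31 in MPC samples. The lines did not overlap, with lower values in MTT cells. The log2 difference was -0.14 (standard error 0.04, 95% interval -0.23 to -0.06), just outside the threshold (limma adjusted p = 0.0541). It passed under a mean-variance trend (adjusted p = 0.0124) and when only the brighter genes were tested (adjusted p = 0.0108). Those settings called 12.1% and 22.1% of all genes they tested. Mmp14 did not pass with any 1 array left out (adjusted p 0.0812 to 0.165). Mmp16, which encodes another membrane-type enzyme, read 10.44 ± 0.04 (SD, n = 3) on the MTT arrays and 10.33 ± 0.10 (SD, n = 3) on the MPC arrays, a log2 difference of 0.11 (95% interval -0.01 to 0.23). Mmp24, a membrane-type enzyme known from neurons, had a log2 difference of 0.12 (adjusted p = 0.255). That value rests on single arrays: it was 0.18 without MPC replicate 3, past the threshold (adjusted p = 0.0363), and 0.07 without MPC replicate 2 (adjusted p = 0.532). Mmp17 and Mmp23 were dimmer than the median gene, with log2 differences of -0.03 and -0.06.

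Of the 5 inhibitors 1 rose, 1 fell and 3 did not pass. Timp2, whose product blocks MMPs and also forms the complex in which MT1-MMP activates the Mmp2 precursor, had the largest difference among the 48 genes. It read 10.95, 10.86 and 10.88 in MTT and 10.41, 10.38 and 10.36 in MPC samples. Each MTT sample was above each MPC sample. The means were 10.90 ± 0.05 (SD, n = 3) and 10.38 ± 0.02 (SD, n = 3), a log2 difference of 0.52 (standard error 0.04, 95% interval 0.43 to 0.60), or 1.43-fold (limma adjusted p = 0.000114). The call held in each of the 15 alternative settings, with differences of 0.49 to 0.54. Cep295nl, a gene model that overlaps Timp2, differed by 0.08 on the log2 scale (adjusted p = 0.317).

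Timp3, the matrix-bound inhibitor that also blocks ADAM17 and ADAMTS enzymes, went the other way. It read 7.71, 7.69 and 7.88 in MTT and 8.07, 7.96 and 8.11 in MPC samples, with no overlap but a gap between MTT replicate 3 and MPC replicate 2 that is smaller than the spread within MTT cells. The means were 7.76 ± 0.10 (SD, n = 3) and 8.05 ± 0.08 (SD, n = 3), a log2 difference of -0.29 (standard error 0.06, 95% interval -0.43 to -0.15, limma adjusted p = 0.025). Timp3 is the 1 called member that was dimmer than the median gene, at a signal not shown to lie above background. The call ended without MTT replicate 1 (adjusted p = 0.0986), MTT replicate 2 (0.0955), MPC replicate 1 (0.0803) or MPC replicate 3 (0.0746). It also ended with ordinary variances (adjusted p = 0.150) and with adjustment over all probe sets (adjusted p = 0.0974). Timp3 overlaps Syn3, a synapsin gene, which read 11.99 ± 0.01 (SD, n = 3) on the MTT arrays and 11.95 ± 0.05 (SD, n = 3) on the MPC arrays and did not pass (adjusted p = 0.588).

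The 250 bases before the start of Timp2 (chr11:118355412-118355661, minus strand) and Timp3 (chr10:86300162-86300411, plus strand) are shown since these inhibitors were called in opposite directions (RefSeq, GRCm38.p6). Capitals mark the GC box, GGGCGG or its reverse complement, which begins 37 bases before the start of Timp2 and 15 before that of Timp3.
Timp2: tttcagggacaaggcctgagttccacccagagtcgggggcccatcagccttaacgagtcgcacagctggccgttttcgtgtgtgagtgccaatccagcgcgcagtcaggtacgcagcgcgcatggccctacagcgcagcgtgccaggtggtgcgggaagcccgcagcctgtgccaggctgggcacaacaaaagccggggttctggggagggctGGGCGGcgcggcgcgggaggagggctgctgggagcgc
Timp3: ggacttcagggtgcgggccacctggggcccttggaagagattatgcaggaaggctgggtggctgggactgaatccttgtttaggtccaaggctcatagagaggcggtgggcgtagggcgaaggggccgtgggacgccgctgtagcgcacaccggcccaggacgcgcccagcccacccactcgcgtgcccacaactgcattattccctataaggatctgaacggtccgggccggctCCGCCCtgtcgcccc
Each window holds 1 GC box and neither holds a TATA or AP-1 motif. A GC box was found in 20 of the 33 members with a promoter entry, and in 5 of the 6 called ones (Mmp2 had no entry). Of all 27025 genes in the promoter table, measured here or not, 32.9% had a GC box. The difference was not tested.

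Among the uncalled inhibitors, Timp1, which is induced in many injured tissues, read 9.63 ± 0.07 (SD, n = 3) on the MTT arrays and 9.76 ± 0.10 (SD, n = 3) on the MPC arrays, a log2 difference of -0.13 (95% interval -0.27 to 0.0032, adjusted p = 0.254). Reck, a membrane-anchored inhibitor of MMPs, had a log2 difference of -0.04 (95% interval -0.13 to 0.04). Timp4 read 6.07 ± 0.08 (SD, n = 3) and 6.10 ± 0.13 (SD, n = 3), dimmer than the median gene.

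**Figure D2:**
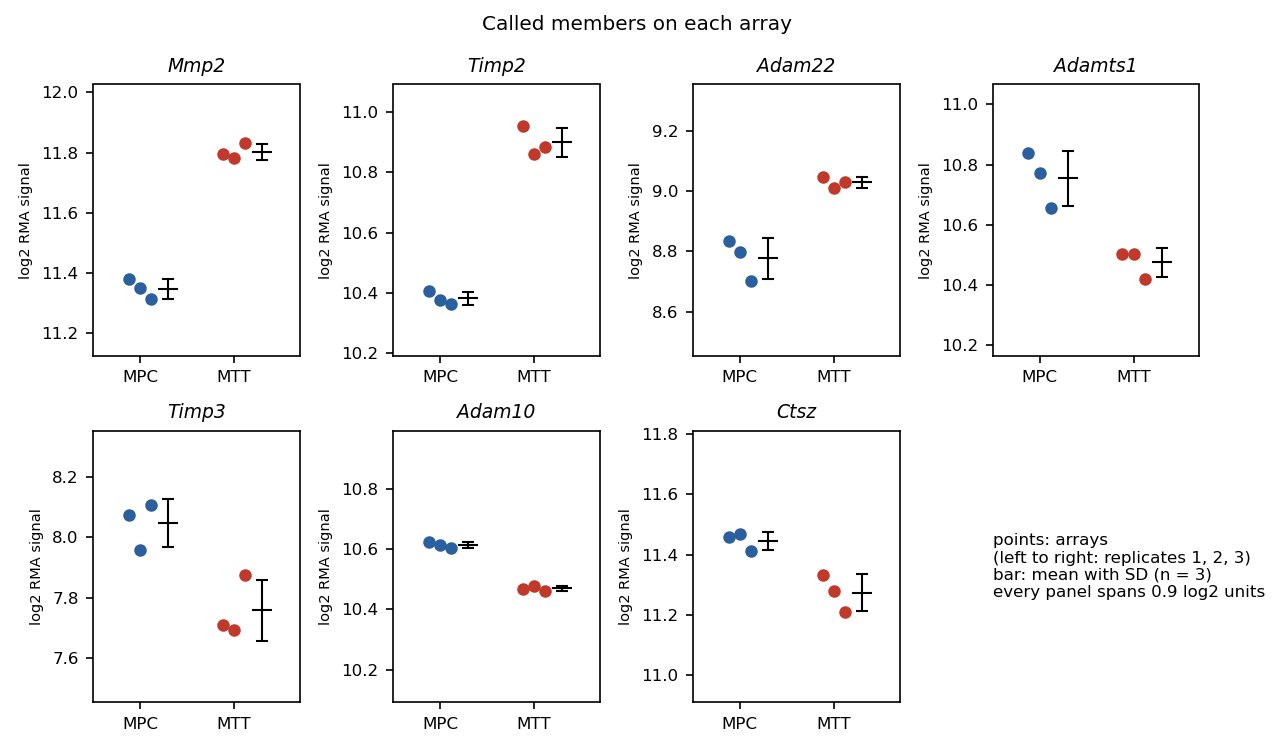
log2 RMA signal (vertical axis) of the 7 called genes on each MPC (blue) and MTT (red) array, with the mean and SD of 3 arrays as a black bar. Every panel spans the same log2 range, so the gap of Mmp2 (11.80 against 11.35) can be set beside that of Adam10 (10.47 against 10.61), while signals cannot be set against each other across genes.

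Of the 7 ADAM sheddases, 1 was lower in MTT cells and none was higher. Adam10, the alpha-secretase that sheds Notch receptors, cadherins and amyloid precursor protein, read 10.47, 10.48 and 10.46 in MTT and 10.62, 10.61 and 10.60 in MPC samples. The replicates lay very close together, and the lines did not overlap. The log2 difference was small, -0.14 (standard error 0.03, 95% interval -0.21 to -0.07, limma adjusted p = 0.0252). Leaving out any array other than MPC replicate 3 ended the call (adjusted p 0.0796 to 0.0868), as did median centring (adjusted p = 0.0763) and adjustment over all probe sets (adjusted p = 0.0722). Adam17, the enzyme that releases tumour necrosis factor, read 10.991 to 11.003 in the 3 MTT samples and 11.085 to 11.096 in the 3 MPC samples. Its lines did not overlap either, at a log2 difference of -0.09 (95% interval -0.16 to -0.02, adjusted p = 0.124). The difference passed with ordinary variances (adjusted p = 0.0113), under a mean-variance trend (0.0315) and when only the brighter genes were tested (0.0298). It did not pass with any 1 array left out (adjusted p 0.172 to 0.272) or with median centring (0.301). Adam9 and Adam15, which are both brighter than the median gene, had log2 differences of 0.01 (95% intervals -0.06 to 0.08 and -0.08 to 0.09). Adam8, Adam12 and Adam19 were dimmer than the median gene, with log2 differences of 0.03, 0.08 and -0.03.

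Adam22 and Adam23 encode neuronal surface proteins that lack a working protease site and bind the secreted protein Lgi1. Adam22 read 9.05, 9.01 and 9.03 in MTT and 8.83, 8.80 and 8.70 in MPC samples, each MTT sample above each MPC sample. The means were 9.03 ± 0.02 (SD, n = 3) and 8.78 ± 0.07 (SD, n = 3), a log2 difference of 0.25 (standard error 0.04, 95% interval 0.16 to 0.35), or 1.19-fold (limma adjusted p = 0.00886). The call held without each array in turn (adjusted p 0.0142 to 0.0433) and ended with ordinary variances (adjusted p = 0.0646). Adam23 read 7.18 ± 0.01 (SD, n = 3) and 7.17 ± 0.05 (SD, n = 3), dimmer than the median gene.

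Of 7 measured ADAMTS genes, Adamts1 was lower in MTT cells and none was higher. Adamts1 encodes a secreted protease of the proteoglycans versican and aggrecan. It read 10.50, 10.50 and 10.42 in MTT and 10.84, 10.77 and 10.66 in MPC samples, with no overlap and a wider spread in MPC cells. The means were 10.48 ± 0.05 (SD, n = 3) and 10.75 ± 0.09 (SD, n = 3), a log2 difference of -0.28 (standard error 0.05, 95% interval -0.40 to -0.16, limma adjusted p = 0.0153). The call ended without MTT replicate 3 (adjusted p = 0.0593) or MPC replicate 2 (adjusted p = 0.0583), with ordinary variances (adjusted p = 0.109) and with adjustment over all probe sets (adjusted p = 0.0685). Its promoter is shown as the only one of the 6 called members in the table with a TATA motif (chr16:85803114-85803363, GRCm38.p6, minus strand, RefSeq). Capitals mark TATAAA, which begins 32 bases before the start, and 3 GC boxes, at 147, 76 and 25 bases before it.
Adamts1: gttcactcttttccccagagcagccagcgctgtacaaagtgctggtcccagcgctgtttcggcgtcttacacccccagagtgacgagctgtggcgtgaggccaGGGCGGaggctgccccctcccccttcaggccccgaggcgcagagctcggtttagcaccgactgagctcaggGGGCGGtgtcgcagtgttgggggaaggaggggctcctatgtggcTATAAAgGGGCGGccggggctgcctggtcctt
Adamts10, which acts on fibrillin microfibrils, read 9.75, 9.75 and 9.73 in MTT and 9.63, 9.62 and 9.49 in MPC samples. The lines did not overlap, and its log2 difference was 0.17 (95% interval 0.07 to 0.27, adjusted p = 0.058). It passed under a mean-variance trend (adjusted p = 0.0154), among the brighter genes alone (adjusted p = 0.013) and after renewed quantile normalization (adjusted p = 0.0248). Adamts10 did not pass with any 1 array left out (adjusted p 0.0704 to 0.163), with ordinary variances (0.158) or with adjustment over all probe sets (0.154). Adamts6, on chromosome 13, had the largest difference among the uncalled members, 0.30 (95% interval 0.08 to 0.52, adjusted p = 0.114), at a signal of 6.37 that is dimmer than the median gene. It passed under a mean-variance trend (adjusted p = 0.0443), and its difference was 0.10 (adjusted p = 0.606) once the shift of its chromosome was taken off. The aggrecanases Adamts4 and Adamts5 had log2 differences of 0.01 (95% interval -0.08 to 0.09) and -0.05 (95% interval -0.25 to 0.14). Adamts3, which trims procollagen, and Adamts9 had differences of -0.04 and -0.11.

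In the plasminogen system none of the 3 measured genes for activators and their receptor was called, and 1 had an unadjusted p under 0.05. It was Plat, the tissue-type activator that chromaffin cells store in their granules. Plat read 8.96, 8.92 and 8.86 in MTT and 8.79, 8.81 and 8.85 in MPC samples. The lowest MTT sample lay just above the highest MPC sample, and the log2 difference was 0.10 (95% interval 0.01 to 0.19, adjusted p = 0.197). Plau, the urokinase-type activator, read 6.68 ± 0.03 (SD, n = 3) and 6.65 ± 0.01 (SD, n = 3), and its receptor gene Plaur 7.09 ± 0.07 (SD, n = 3) and 7.10 ± 0.10 (SD, n = 3). Both were dimmer than the median gene. Serpini1, for neuroserpin, an inhibitor of the tissue-type activator, had a log2 difference of 0.19 (95% interval 0.04 to 0.33, adjusted p = 0.132) with overlapping lines. Leaving out MPC replicate 2 brought it past the threshold (adjusted p = 0.0466).

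Of 6 cathepsin genes, 1 was lower and 5 did not pass. Ctsz, a carboxypeptidase whose precursor also binds integrins, read 11.33, 11.28 and 11.21 in MTT and 11.46, 11.47 and 11.41 in MPC samples. The lines did not overlap. The means were 11.27 ± 0.06 (SD, n = 3) and 11.45 ± 0.03 (SD, n = 3), a log2 difference of -0.17 (standard error 0.04, 95% interval -0.27 to -0.08, limma adjusted p = 0.0433). Leaving out any array other than MTT replicate 1 ended the call (adjusted p 0.0602 to 0.139). It also ended with ordinary variances (adjusted p = 0.126), adjustment over all probe sets (0.125), median centring (0.092) and without the chromosome shift (0.0636). Nelfcd, which overlaps Ctsz, had a log2 difference of 0.08 (adjusted p = 0.284). Ctsl, the endopeptidase cathepsin L, read 11.17, 11.07 and 11.06 in MTT and 10.97, 10.96 and 10.97 in MPC samples. Its log2 difference was 0.13 (95% interval 0.04 to 0.22, adjusted p = 0.0987). Ctsl lies on chromosome 13, where genes brighter than the median had a median log2 difference of 0.20 and 65.9% of them were called, and with that shift taken off its difference was -0.07 (adjusted p = 0.409). It passed under a mean-variance trend (adjusted p = 0.0189) and when only the brighter genes were tested (adjusted p = 0.0258). Ctsl did not pass with any 1 array left out (adjusted p 0.116 to 0.239).

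The abundant lysosomal proteases Ctsb and Ctsd differed little between the lines. Ctsb read 11.65 ± 0.03 (SD, n = 3) on the MTT arrays and 11.66 ± 0.03 (SD, n = 3) on the MPC arrays, a log2 difference of -0.01 (95% interval -0.09 to 0.07). Ctsd read 11.60 ± 0.06 (SD, n = 3) and 11.59 ± 0.03 (SD, n = 3), a log2 difference of 0.01 (95% interval -0.08 to 0.11). Cst3, for cystatin C, the secreted inhibitor of cysteine cathepsins, read 12.69 ± 0.01 (SD, n = 3) and 12.67 ± 0.03 (SD, n = 3), a log2 difference of 0.01 (95% interval -0.06 to 0.09). Ctsh, an aminopeptidase, and Ctsk, the collagen-cutting cathepsin of osteoclasts, were dimmer than the median gene, with log2 differences of -0.01 and -0.06. Hpse, for heparanase, which cuts heparan sulfate chains, read 6.84 ± 0.13 (SD, n = 3) on the MTT arrays and 6.76 ± 0.08 (SD, n = 3) on the MPC arrays (95% interval of the difference -0.09 to 0.23). Over the 41 uncalled members the 95% intervals lay between -0.30 and 0.52, so a 2-fold change in signal lies outside each of them.

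**Figure D3:**
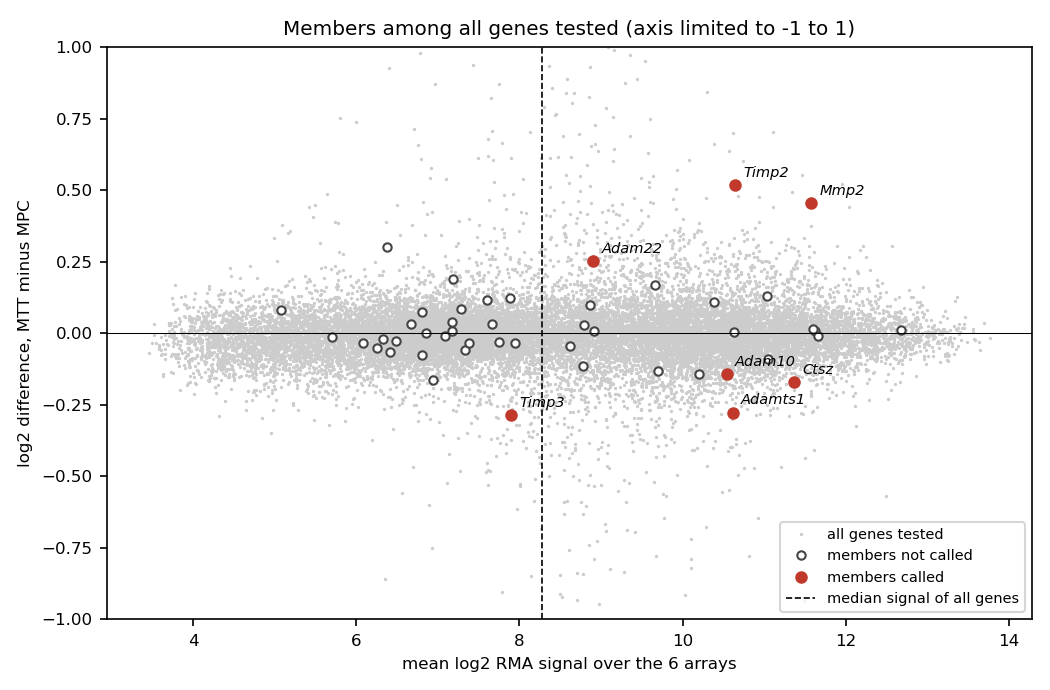
log2 difference (vertical axis, MTT minus MPC) against the mean log2 RMA signal over the 6 arrays (horizontal axis) for all genes tested (grey), uncalled members (open circles) and called members (red). The dashed line is the median signal, 8.28, and 6 of the 7 called members lie to the right of it.

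Of 80 measured genes of the same systems outside the family list, 4 were higher and 2 lower in MTT cells and 74 did not pass, against 7.87% of all genes called. Mmel1, for a neprilysin-like peptidase, rose by 0.61 on the log2 scale (standard error 0.04, limma adjusted p = 4.06e-05), from 9.77 ± 0.05 (SD, n = 3) to 10.38 ± 0.01 (SD, n = 3). Serpinb6a, an intracellular protease inhibitor on chromosome 13, rose by 0.39 (adjusted p = 0.00225), a call that ended once the shift of that chromosome was taken off (difference 0.19, adjusted p = 0.0525). Anxa2, for annexin A2, a surface receptor of plasminogen and the tissue-type activator, read 9.10, 9.23 and 9.14 in MTT and 9.42, 9.42 and 9.38 in MPC samples. It fell by 0.25 (adjusted p = 0.00819), a call that ended with ordinary variances (adjusted p = 0.0613), while its partner S100a10 read 13.20 ± 0.03 (SD, n = 3) and 13.19 ± 0.03 (SD, n = 3). Ece1, the endothelin-converting enzyme, rose by 0.19 (adjusted p = 0.0144) and the cysteine protease Ctso fell by 0.24 (adjusted p = 0.019). Adamts20, at a signal dimmer than the median gene, rose by 0.19 (adjusted p = 0.0343). Without 1 array the call of Ece1 ended for MTT replicates 2 and 3 and MPC replicate 1 (adjusted p 0.0524 to 0.0652). That of Ctso ended for MTT replicates 2 and 3 and MPC replicates 2 and 3 (0.0564 to 0.0802), and that of Adamts20 for each array except MPC replicate 3 (0.0571 to 0.128). With adjustment over all probe sets all 3 of these calls ended (0.0564 for Ece1, 0.0781 for Ctso and 0.108 for Adamts20), and with ordinary variances those of Ctso (0.112) and Adamts20 (0.121) did. Furin, an activating convertase, differed by 0.07 (95% interval -0.04 to 0.17), and Bsg, a surface protein that induces MMPs in neighbouring cells, by -0.0021 (95% interval -0.08 to 0.07).

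**Figure D4:**
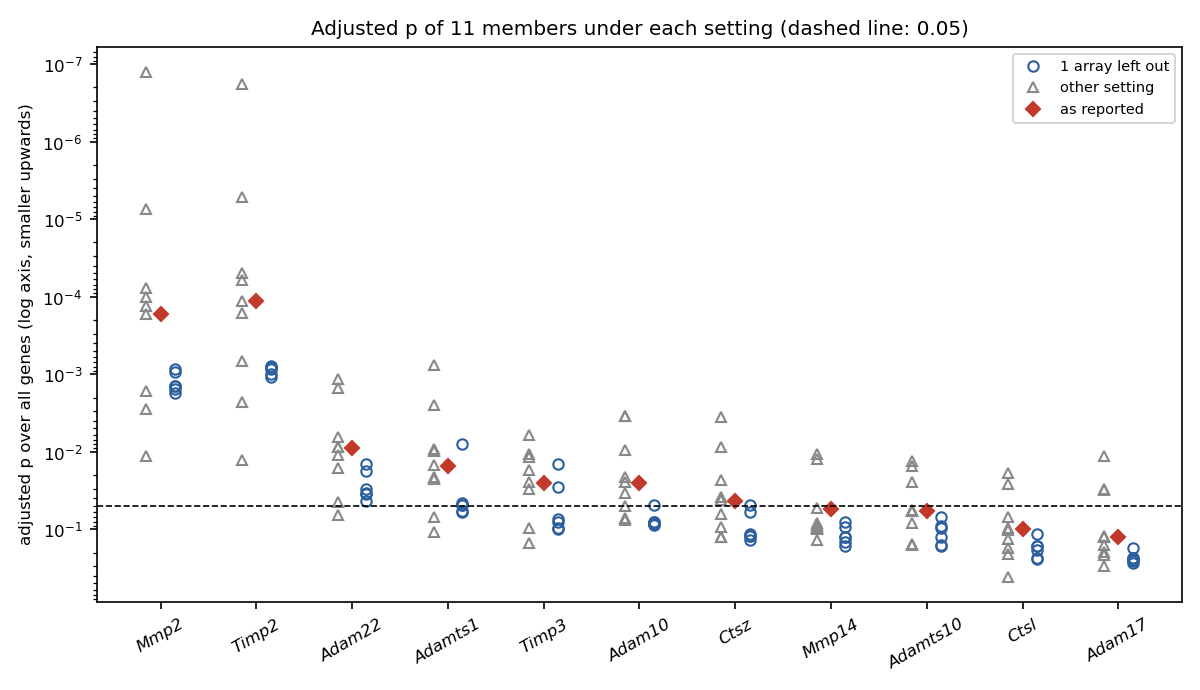
Adjusted p over all genes (vertical log axis, smaller values upwards) of the 7 called members and of Mmp14, Adamts10, Ctsl and Adam17 as reported (red), without 1 array (blue circles) and under the other settings (grey triangles). Every point of Mmp2 and Timp2 lies above the dashed line at 0.05, whereas Ctsz and Adam10 each keep the call without 1 array only once, without MTT replicate 1 and MPC replicate 3 respectively.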

How the data were processed

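RNA of 3 MTT and 3 MPC samples was read on 6 Affymetrix Mouse Gene 1.0 ST arrays. The authors deposited log2 values after RMA, which the methods run in Partek and in R. The submitters' notes name Affymetrix Expression Console, and no version is given in the sources that were used. Quantile normalization assumes like distributions on all arrays, and array signals can compress folds. Of 34760 probe sets, 21640 had exactly 1 symbol in the platform's annotation, and the brightest per gene gave 19937 genes. RefSeq (GRCm38.p6) gave chromosomes, overlapping models and promoters. The lines were tested against each other in limma 3.58.1 (lmFit, eBayes) under R 4.3.3, two-sided, with Benjamini-Hochberg adjustment over all genes. Tables were read with the data.table package (version 1.17.8). Figures used Python 3.11.15 and matplotlib 3.10.9. The rule names every called member, the 2 smallest p-values and the highest and lowest signal of each role, and up to 10 called genes of the same systems. Further uncalled members with their values, and Furin, Bsg, S100a10, Sulf1, Sulf2 and Lrp1, were named after their values were seen. The members and lists were chosen with earlier results of these data known. The fit was tested on simulated data of this comparison with 19937 genes. There 100 of 100 changes of 1 and 74 of 100 changes of 0.25 on the log2 scale were recovered, with 10 false calls. The noise was drawn independently for each gene, without chromosome-wide shifts, and 184 genes were called, against 1569 in the data. The recovered shares thus hold for that setting only. Arrays give no read depth, so their number limits the precision. In 15 alternatives the fit used ordinary variances (the 2-group form of the methods' analysis of variance), a mean-variance trend, a replicate block, the mean of probe sets, genes above the median signal, all probe sets, renewed quantile normalization, median centring, the chromosome's median shift taken off, and leaving out each of the 6 arrays.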

Additional observations from a re-analysis of the deposited data

How the results depend on the processing

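Against 7 members called, with 7.87% of all genes, 4 were called with ordinary variances (4.13% of all genes), 12 with a mean-variance trend (12.1%), 3 with adjustment over all probe sets (3.75%), and 4 to 6 without 1 array (4.47% to 6.40%). The counts thus moved with the background. Among the fits without 1 array, the lowest count, 4, came without MTT replicate 2, MTT replicate 3 or MPC replicate 1. Counts of higher members, 3 as reported, were 6 with a trend and 5 among genes above the median signal. Among genes above the median signal 22 members were tested, and 22.1% of all such genes were called in either direction. Counts of lower members, 4 as reported, were 2 with ordinary variances (Adam10 and, in place of the others, Adam17). They were 2 with median centring (6.73% of all genes called in either direction) and 1 to 2 without any 1 of the 6 arrays. Over all probe sets 0 were lower by limma, with 7 at an unadjusted p under 0.05. Against 6 other protease genes called, 3 were called over all probe sets and 3 to 5 without 1 array, the lowest without MTT replicate 2. Of the 41 uncalled members 20 changed sign under at least 1 alternative, 17 of them without 1 array, all with reported differences of at most 0.13 in size. Among the 2 smallest p-values of each role these were Ctsl with the chromosome shift taken off (-0.065) and, without 1 array, Adam23 (-0.012 to 0.036), Cst3 (-0.0028 to 0.024) and Hpse (-0.0027 to 0.11). No called gene changed sign. Samples share only a number across lines: their deviations correlated at 0.12, 0.07 and 0.25 for numbers 1, 2 and 3, each sample best with its own number. With the replicate number as a block 8 members (and 7.53% of all genes) were called, the 7 and Adamts6, and no other call of a member changed. The number of arrays and dim signals limit what could be detected.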

Other observations

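Adamts3 and Adamts9 were the 2 members with several probe sets. The 16 probe sets of Adamts3 had mean log2 signals of 4.53 to 7.95 and log2 differences (MTT minus MPC) of -0.24 to 0.11, and the 6 of Adamts9 had signals of 6.26 to 8.77 and differences of -0.11 to 0.15. None passed limma's test adjusted over all probe sets (lowest adjusted p 0.229 and 0.287), and 2 and 1 had an unadjusted p under 0.05. The brightest probe set stands for each gene in the comparison.

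Heparan sulfate editing genes beside heparanase were not called by limma (0 of 3, with 1 at an unadjusted p under 0.05). Sulf2, a sulfatase that removes sulfate groups from heparan sulfate, read 12.29 ± 0.02 (SD, n = 3) on the MTT arrays and 12.24 ± 0.04 (SD, n = 3) on the MPC arrays. Sulf1, the related sulfatase, read 7.22, 7.15 and 7.23 in MTT and 7.33, 7.30 and 7.39 in MPC samples, with no overlap and a log2 difference of -0.14 (limma adjusted p = 0.0682). Lrp1, the endocytic receptor that clears protease and inhibitor complexes, had a log2 difference of 0.12 (limma adjusted p = 0.0638) at 10.01 ± 0.02 (SD, n = 3) on the MTT arrays and 9.89 ± 0.02 (SD, n = 3) on the MPC arrays.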
